A study of Mus musculus with 192 samples.

Results

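Genes that mark or serve thymic epithelial cells were followed in thymus RNA of flown and ground-kept mice, namely Foxn1, Aire, Fezf2, Prss16, Krt5, Krt8, Krt14, Epcam, Il7 and Cldn4. They were chosen by name as known genes of these cells, and they are 10 of the 54752 genes in the deposited table. All 10 had enough counts in thymus to be tested. RNA had been sequenced from 9 tissues in 192 samples, and thymus is the tissue described here.

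The mice were male, of strain C57BL/6 per the labels and of C57BL/6J background per the study's methods, and 12 weeks of age (in the methods, the age before launch). They were either wild type (WT) or Nrf2-KO. In Nrf2-KO mice the gene for Nrf2, a transcription factor that induces antioxidant and detoxifying enzymes, is disrupted in the whole animal, so no effect can be assigned to the epithelium. Flight mice (FL_WT, n = 6, and FL_KO, n = 5) were kept on the International Space Station, came back alive and were dissected on Earth after behavioural tests. Ground control mice (GC_WT, n = 6, and GC_KO, n = 6) were kept later, at another site, in matching cages, so flight, landing, site and date cannot be told apart. Flight mouse 4, an Nrf2-KO animal with intestinal bleeding, was left out of all comparisons.

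The thymus is built on a mesh of epithelial cells in which T cell precursors grow. Cortical epithelial cells give the precursors their first signals and select those whose receptors can read self peptides, whereas medullary epithelial cells display proteins of other organs and remove T cells that react to them. FOXN1 is the master transcription factor of both kinds, and AIRE and FEZF2 each switch on tissue-restricted proteins in the medulla.

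The 23 thymus libraries held 8.01 to 10.6 M expected counts each, and no pair was identical. GC_KO replicates 4 and 1 lay farthest from their group. Nfe2l2, which encodes Nrf2, was at 60.7 ± 3.21 (SD, n = 6) CPM (counts as a share of the library total, scaled by TMM) in GC_WT and 26.5 ± 3.14 (SD, n = 6) in GC_KO, so transcripts remained in the knockout. Defining markers of thymic epithelium were detected in every group. CPM is used for values of 1 gene across mice. TPM, which also corrects for gene length, is used to compare levels between genes or tissues. Small RNA genes took 53.3% to 68.2% of TPM in these rRNA-depleted libraries, and on log2(TPM + 1) the median gene moved by 0.20 with flight in WT and by 0.19 in Nrf2-KO mice, against 0.02 and -0.01 in the edgeR fit on counts. Of the genes called in flight, 95.7% in WT and 94.5% in Nrf2-KO mice were higher on the TPM scale, against 51.7% and 50.5% by edgeR. TPM was also rescaled without small RNA, ribosomal protein and mitochondrial genes. The median gene then moved by 0.16 in WT and 0.17 in Nrf2-KO mice, and 90.0% and 88.6% of called genes were higher. The cause of this shift was not tested. Changes are therefore given relative to the median gene.

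Levels of the 10 genes spanned a wide range. Median TPM over the 23 thymus libraries was 354 (207 to 636) for Prss16, a serine protease of the cortical epithelium. The keratin Krt8 stood at 143 (72.8 to 214) TPM and Krt5 at 30.9 (14.2 to 52.0) TPM. Epcam was at 18.7 TPM, Krt14 at 12.8, Cldn4 at 8.92 and Il7 at 8.54. The 3 transcription factors had the lowest medians, with Aire at 7.97 (4.31 to 18.2), Foxn1 at 6.79 (3.22 to 12.1) and Fezf2 at 4.59 (2.01 to 8.22) TPM. Neighbours in this order overlapped except Krt8, which lay apart from Krt5, and Fezf2 rested on 52 to 159 expected counts per library.

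Across tissues, medians of Foxn1, Aire and Prss16 were highest in thymus, and no library of another tissue reached the lowest thymus library. The next tissue was mandibular bone for Foxn1 (0.49 TPM) and spleen for Aire (2.83 TPM, 1.45 to 3.93) and Prss16 (1.31 TPM). Fezf2, which also acts in cortical neurons, was highest in cerebrum at 23.1 (16.9 to 26.1) TPM, with thymus in the second place. Krt5 and Krt14, the keratin pair of basal layers of stratified epithelia, were highest in mandibular bone, at 1367 and 2016 TPM. Temporal bone libraries spread from 0.20 to 209 TPM for Krt5 and overlapped thymus. Krt8 in thymus overlapped liver (88.1 TPM), Il7 overlapped spleen (11.9 TPM), and Epcam and Cldn4 had higher medians in temporal bone and kidney than in thymus. Thymus libraries were made from rRNA-depleted total RNA and all others from poly(A) RNA, so tissue and library type cannot be told apart here.

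**Figure D1:**
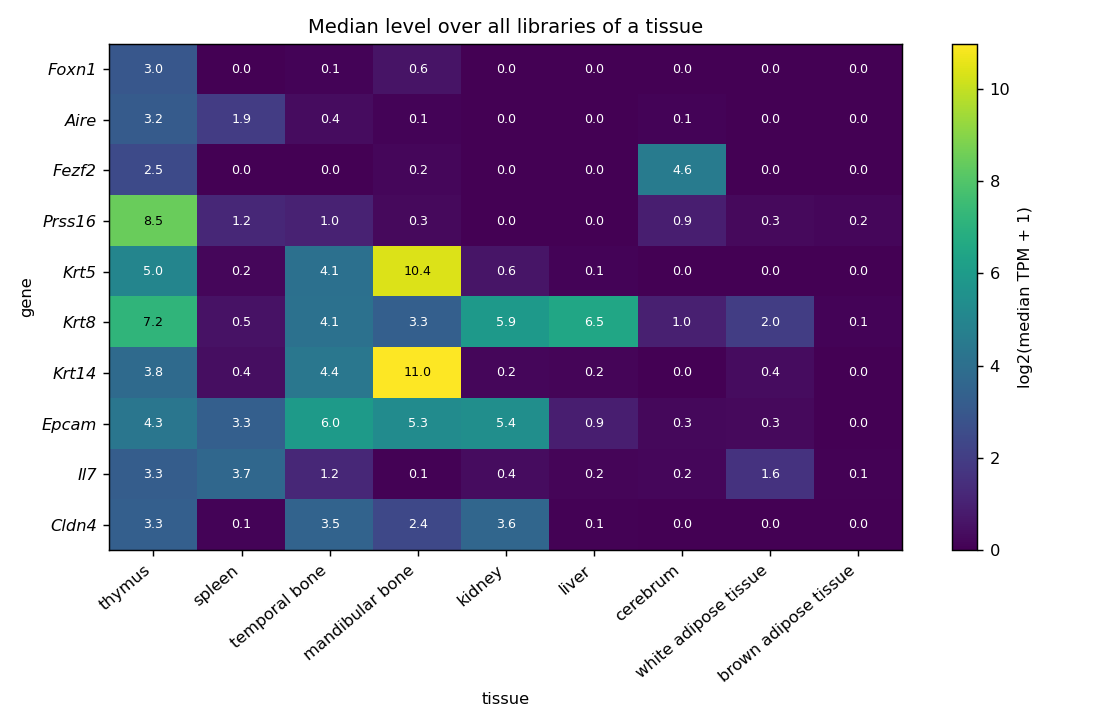
Heat map of log2(median TPM + 1) over the libraries of a tissue, by colour and number, with the 10 genes as rows and the 9 tissues as columns. Foxn1, Aire and Prss16 are highest in the thymus column, whereas Fezf2 is highest in cerebrum and Krt5 and Krt14 in mandibular bone.

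On GRCm38, Foxn1 (ENSMUSG00000002057.4) lies on chromosome 11 from 78357577 to 78386558 and Krt14 (ENSMUSG00000045545.8) on the same chromosome from 100203162 to 100207548. Aire (ENSMUSG00000000731.15) lies on chromosome 10 from 78030022 to 78043610, and Epcam (ENSMUSG00000045394.9) on chromosome 17 from 87635979 to 87651129. Fezf2 (ENSMUSG00000021743.6) is on chromosome 14 from 12342094 to 12348189, and Prss16 (ENSMUSG00000006179.9) on chromosome 13 from 22002173 to 22009742. Krt5 (ENSMUSG00000061527.7) and Krt8 (ENSMUSG00000049382.10) lie on chromosome 15 from 101707070 to 101712898 and from 101996698 to 102004482. Il7 (ENSMUSG00000040329.14) is on chromosome 3 from 7569994 to 7613760, and Cldn4 (ENSMUSG00000047501.3) on chromosome 5 from 134945119 to 134946934. All but Epcam are on the minus strand. Exons of Aire, Il7, Krt5 and Krt8 overlap those of Dnmt3l, Gm16685, Gm44323 and Gm36026 on the other strand, and the strand setting of the counting is not given in the sources used here. Dnmt3l had 1 to 13 expected counts per library, against 89 to 286 for Aire, whereas Gm44323 had 0 and Gm36026 at most 3 counts in any library.

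The stretches before the start sites of Aire and Epcam, from RefSeq on GRCm38.p6, are shown because these genes were called in flight in both genotypes, and a short stretch of Krt5 because it holds both motifs searched. Capitals mark the core bound by FOXN1 (GACGC, or GCGTC on the other strand) and the antioxidant response element core bound by Nrf2 (TGACNNNGC, both strands searched).
Aire, chr10:78043611-78043860, minus strand: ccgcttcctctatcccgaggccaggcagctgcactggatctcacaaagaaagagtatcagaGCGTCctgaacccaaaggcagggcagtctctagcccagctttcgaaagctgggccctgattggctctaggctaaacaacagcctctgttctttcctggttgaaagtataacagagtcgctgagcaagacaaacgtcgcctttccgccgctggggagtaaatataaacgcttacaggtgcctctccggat
Epcam, chr17:87635729-87635978, plus strand: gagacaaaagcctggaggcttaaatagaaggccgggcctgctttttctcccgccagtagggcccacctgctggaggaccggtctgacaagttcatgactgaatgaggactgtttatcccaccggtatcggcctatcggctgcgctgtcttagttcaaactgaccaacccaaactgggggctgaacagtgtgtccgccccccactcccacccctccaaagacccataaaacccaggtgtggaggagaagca
Krt5, chr15:101712863-101712890, minus strand, just after the start site: GCGTCctgttgaacgccgcTGACCTCGC
Windows of 250 bases before to 50 after the start were at hand for 8 of the 10 genes, all but Prss16 and Il7. The FOXN1 core was in 3 of the 8 (Aire, Fezf2 and Krt5), and 27.2% of all 32851 such windows hold it. The antioxidant core was in 1 of the 8 (Krt5), against 12.4% of all windows. The windows of Fezf2 (12345816 to 12346115) and Krt14 (100205981 to 100206280) lie inside the gene spans given above. Their start sites thus differ from the starts of those spans, and the Fezf2 match is not upstream of its span. Such matches describe letters and are not binding sites.

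Comparing flight with ground in WT mice, edgeR called 3 of the 10 genes higher (Aire, Prss16 and Epcam) and none lower, while 11.8% of the 16307 genes tested were called higher, and 1796 genes were called lower. In Nrf2-KO mice 7 of the 10 were higher (Aire, Fezf2, Prss16, Krt5, Krt14, Epcam and Il7) and none lower, against 19.3% and 18.9% of all genes. The median log2 fold change of the 10 was 0.35 in WT and 0.58 in Nrf2-KO mice, and that of all genes was 0.02 and -0.01. Foxn1, Krt8 and Cldn4 were not called in either genotype. In bulk tissue, more cells of a type and more RNA per cell cannot be told apart, and CPM is a share of each library, not an amount per thymus.

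**Figure D2:**
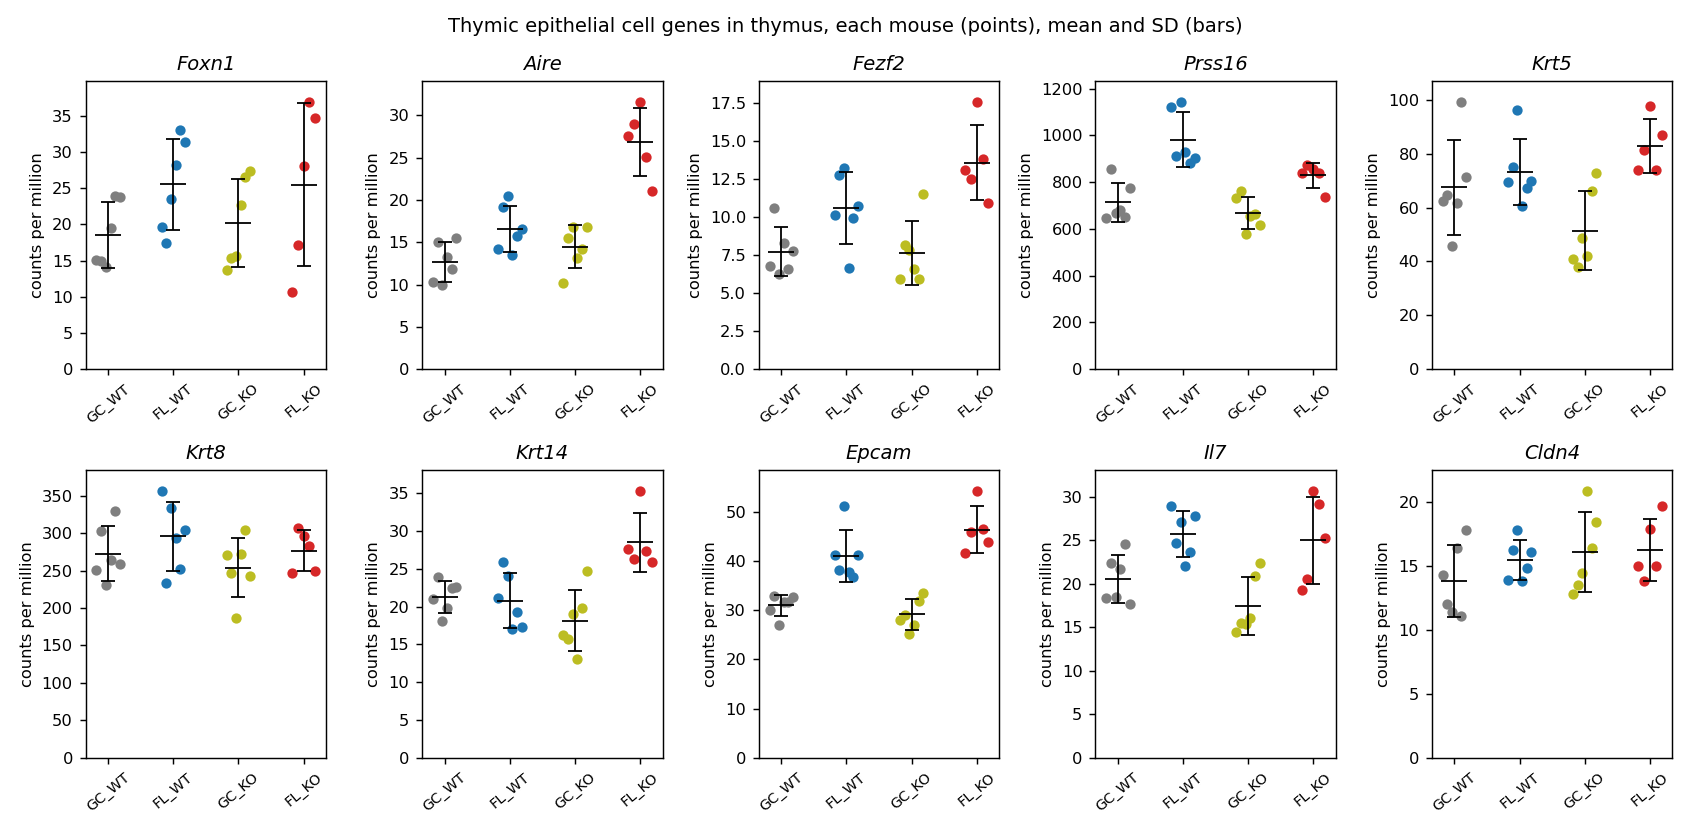
CPM of each gene in each thymus, with the 4 groups along the horizontal axis, 1 point per mouse, and bars for the mean and SD. All FL_WT mice lie above all GC_WT mice for Prss16 and Epcam, and all FL_KO mice above all GC_KO mice for Aire, Krt5, Krt14 and Epcam.

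Aire, the regulator of tissue-restricted proteins in the medulla, had the largest log2 fold change of the 10 genes in Nrf2-KO mice. It ranged from 10 to 15.5 CPM in GC_WT (median 12.5) and from 13.5 to 20.4 in FL_WT (median 16.1). GC_KO mice had 10.2 to 16.8 CPM (median 14.9), and the FL_KO mice 1, 2, 9, 11 and 12 had 27.6, 29.0, 31.5, 25.0 and 21.0 CPM. Every FL_KO mouse was above every mouse of the 3 other groups, whereas FL_WT overlapped GC_WT. The log2 fold change was 0.39 in WT (SE 0.134, adjusted p = 0.0384 by edgeR) and 0.90 in Nrf2-KO mice (SE 0.135, adjusted p = 1.79e-05). The call in WT was lost in 8 of 12 fits that left out 1 mouse, with an adjusted p between 0.0219 and 0.130. It was lost without FL_WT replicates 5, 6, 8 or 10 and without GC_WT replicates 3, 6, 7 or 8. Dnmt3l, the overlapping gene, had 6 to 13 counts in FL_KO and was too low to be tested, and its part in the value of Aire was not tested.

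Fezf2, the other regulator of medullary self-antigens, was at 6.26 to 10.6 CPM in GC_WT (median 7.27) and at 6.65 to 13.2 in FL_WT (median 10.4). In GC_KO it was at 5.91 to 11.5 CPM (median 7.21), and in the FL_KO mice, in the order above, at 13.1, 12.5, 17.5, 13.8 and 10.9. FL_KO mouse 12 lay within the GC_KO range, and the other FL_KO mice were above it. The log2 fold change was 0.83 (SE 0.177, adjusted p = 0.000703) in Nrf2-KO mice, and 0.45 (SE 0.170, adjusted p = 0.0586) in WT mice, where it did not pass.

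Foxn1 varied widely within groups. It ranged from 14.1 to 23.9 CPM in GC_WT (median 17.2), from 17.5 to 33.0 in FL_WT (median 25.8) and from 13.7 to 27.4 in GC_KO (median 19.1). The FL_KO mice were at 10.6, 17.2, 28.1, 36.8 and 34.6 CPM, and so held both the lowest and the highest value of all 23. In every group, mice numbered 1 to 6 were all below mice numbered 7 to 12. The values nearest to this divide were 15.0 and 19.4 CPM in GC_WT and 23.5 and 28.2 in FL_WT. In GC_KO they were 15.6 and 22.7, and in FL_KO 17.2 and 28.1. This order was seen in the data, and its cause was not tested. On the log2 scale the difference between flight and ground was 0.46 in WT (SE 0.238, adjusted p = 0.166) and 0.33 in Nrf2-KO mice (SE 0.252, adjusted p = 0.316), with an SE larger than that of any other of the 10 genes.

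Prss16, the cortical protease, lay between 646 and 858 CPM in GC_WT (median 676) and between 883 and 1142 in FL_WT (median 921), without overlap. GC_KO mice had 578 to 762 CPM (median 659), and the FL_KO mice had 839.9, 873, 857, 841 and 737. FL_KO mouse 12 fell within the GC_KO range and the other 4 above it. Prss16 was thus higher by 0.46 on the log2 scale in WT (SE 0.0801, adjusted p = 0.000230) and 0.31 in Nrf2-KO mice (SE 0.0838, adjusted p = 0.00472).

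Krt5 and Krt14, which pair in basal and medullary epithelial cells, were both called in Nrf2-KO mice. Krt5 was at 45.6 to 99.1 CPM in GC_WT (median 63.6) and 60.5 to 96.3 in FL_WT (median 69.7), an overlap of nearly the whole range. In GC_KO it was at 37.8 to 72.9 CPM (median 45.5), and the FL_KO mice, at 73.9, 81.4, 97.9, 74.1 and 87.0, were all higher. Krt5 had a log2 fold change of 0.11 in WT (SE 0.157, adjusted p = 0.635) and 0.69 in Nrf2-KO mice (SE 0.167, adjusted p = 0.00228). For Krt14, GC_WT mice had 18.1 to 24.0 CPM (median 21.7) and FL_WT mice 17.0 to 25.9 (median 20.2). GC_KO mice had 13.1 to 24.7 CPM (median 17.6), and the FL_KO mice 27.6, 26.3, 35.3, 27.4 and 25.9, again all higher. The log2 fold change of Krt14 was 0.65 in Nrf2-KO mice (SE 0.130, adjusted p = 0.000339). In WT mice it was -0.04 (SE 0.123, adjusted p = 0.851), with a positive sign of 0.17 on log2(TPM + 1).

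Krt8, the keratin of simple epithelia and cortical cells, overlapped between flight and ground in both genotypes. Its CPM was 230.3 to 329 in GC_WT (median 262), 234 to 356 in FL_WT (median 299) and 186 to 304 in GC_KO (median 259). FL_KO mice were at 247, 307, 296, 283 and 249.7. Its log2 fold change was 0.12 in both genotypes, with an SE of 0.106 in WT (adjusted p = 0.458) and 0.112 in Nrf2-KO mice (adjusted p = 0.411).

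Epcam, a surface adhesion molecule of epithelial cells, was the one gene whose flight and ground mice did not overlap in either genotype. GC_WT mice had 27.03 to 32.9 CPM (median 31.7) and FL_WT mice 36.7 to 51.1 (median 39.7). GC_KO mice had 25.2 to 33.6 CPM (median 28.5), and the FL_KO mice 41.6, 45.8, 54.2, 46.6 and 43.8. Epcam was higher by 0.40 on the log2 scale in WT (SE 0.0806, adjusted p = 0.000857) and 0.67 in Nrf2-KO mice (SE 0.0851, adjusted p = 2.84e-06). Cldn4, a tight junction protein of a subset of medullary cells, overlapped throughout. It had 11.1 to 17.8 CPM in GC_WT (median 13.1), 13.8 to 17.8 in FL_WT (median 15.5) and 12.8 to 20.9 in GC_KO (median 15.4), and 15.0, 13.8, 17.9, 15.0 and 19.7 in the FL_KO mice. Its log2 fold change was 0.16 in WT (SE 0.128, adjusted p = 0.381) and 0.01 in Nrf2-KO mice (SE 0.134, adjusted p = 0.946).

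Il7, the cytokine that early thymocytes need to survive, had 17.7 to 24.6 CPM in GC_WT (median 20.1) and 22.05 to 28.9 in FL_WT (median 25.9). GC_KO mice had 14.4 to 22.4 CPM (median 15.8), and the FL_KO mice 19.3, 20.6, 30.6, 29.1 and 25.3. Mice 1 and 2 of FL_KO lay within the GC_KO range, and the same mice were the lowest of FL_KO for Foxn1. The log2 fold change was 0.52 in Nrf2-KO mice (SE 0.129, adjusted p = 0.00275) and 0.32 in WT mice (SE 0.119, adjusted p = 0.0516). The antisense gene Gm16685 had 6 to 41 counts per library and changed by 0.67 in WT (adjusted p = 0.0844 by edgeR) and by 0.81 in Nrf2-KO mice (adjusted p = 0.0321), and its part in the reads of Il7 was not tested.

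By CPM, 2 of the 10 genes were higher in flight without overlap in WT mice (3.82% of all genes) and 4 in Nrf2-KO mice (10.7% of all genes).

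**Figure D3:**
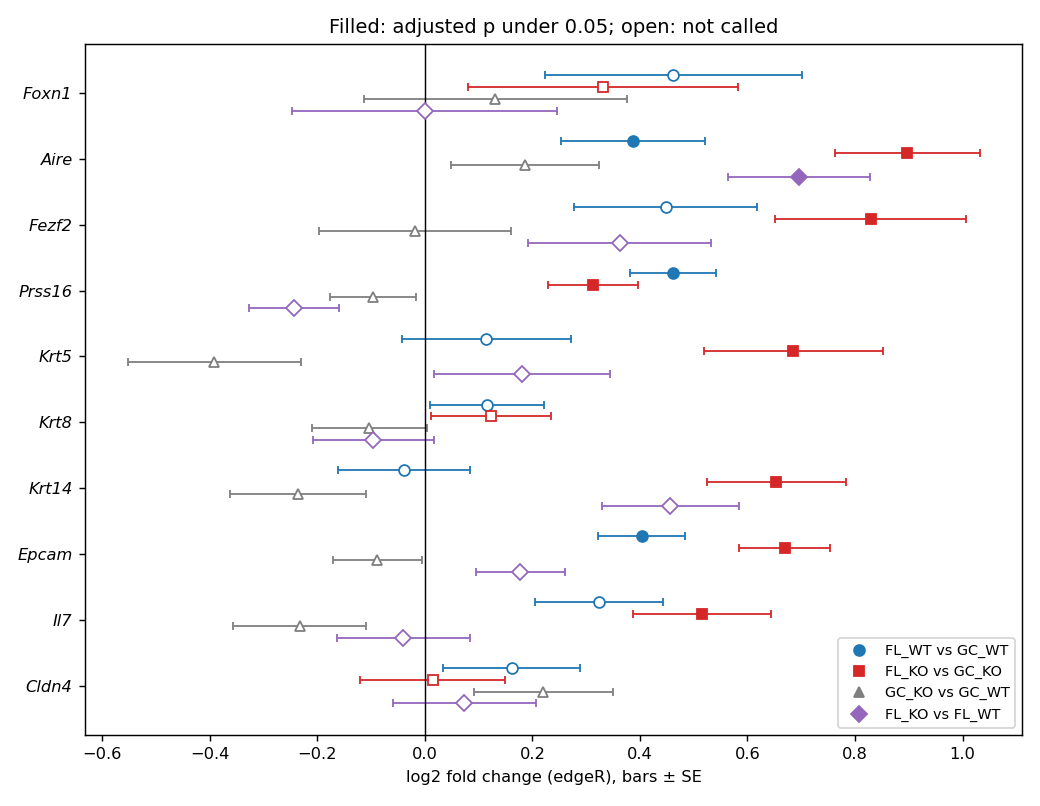
Log2 fold change by edgeR (horizontal axis) of each of the 10 genes (rows) in the flight and genotype comparisons, with bars for the SE, filled symbols for called values and open symbols for the others. FL_KO against GC_KO values reach 0.90 for Aire, whereas GC_KO against GC_WT values lie on both sides of 0.

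Whether the knockout changed these genes on the ground was asked by comparing GC_KO with GC_WT. None of the 10 was called by edgeR (2.67% of all genes were called higher and 1.13% lower) or by DESeq2, and 1 of the 10 (Krt5, log2 fold change -0.39, SE 0.161) had an unadjusted p under 0.05, against 18.8% of all genes. The median of the 10 was -0.09. Among flown mice, FL_KO exceeded FL_WT for Aire alone (1.31% of all genes were called higher and 1.34% lower), by 0.70 on the log2 scale (SE 0.132, adjusted p = 0.00386 by edgeR), without overlap between the groups, as for 1.84% of all genes. The call of Aire held without any single mouse but was lost with limma on log2(TPM + 1) (0.59, adjusted p = 0.0631), with a pseudocount of 0.1 (adjusted p = 0.0818) and without a filter (adjusted p = 0.0947). Krt14 followed with 0.46 (SE 0.127, adjusted p = 0.0515). Prss16 was at -0.24 (SE 0.0841, adjusted p = 0.110). All 5 FL_KO mice were below the lowest FL_WT mouse for Prss16, as for 1.59% of all genes.

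The difference between the flight responses of the genotypes was tested as an interaction. By edgeR 0 of the 10 genes and 0.00% of all genes passed, with 4 of the 10 at an unadjusted p under 0.05 against 8.23% of all genes, and DESeq2 called none of the 10. These 4 were Krt14 (0.69 on the log2 scale, SE 0.179, adjusted p = 0.334), Krt5 (0.57, SE 0.230, adjusted p = 0.503), Aire (0.51, SE 0.191, adjusted p = 0.464) and Epcam (0.27, SE 0.117, adjusted p = 0.557), all with the larger value in Nrf2-KO mice. Calls in 1 genotype and not in the other, as for Fezf2, Krt5, Krt14 and Il7, are thus not shown to differ between genotypes. GC_KO is shared by the ground comparison and the Nrf2-KO flight comparison, so the same GC_KO mice enter both values.

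Other genes of thymic epithelium were counted from a list of 55, of which 42 had enough counts. Of these, 21 were called higher in flight in WT and 34 in Nrf2-KO mice, and none lower in either. Among all genes, 11.8% and 19.3% were called higher. The median log2 fold change of the 42 was 0.35 in WT and 0.64 in Nrf2-KO mice, and that of all genes 0.02 and -0.01. None of the 42 was called between GC_KO and GC_WT. In the interaction none of the 42 passed, nor did any of the 16307 genes. The 2 flight counts are thus not shown to differ between genotypes.

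Cortical genes numbered 10, of which 6 rose in WT (median 0.35) and 5 in Nrf2-KO mice (median 0.32). Cxcl12, a chemokine that guides precursors into the cortex, changed by 0.54 in WT (adjusted p = 1.62e-05) and by 0.34 in Nrf2-KO mice (adjusted p = 0.000934). Tbata, Ly75 and Enpep, the last 2 being surface proteins of cortical cells, were also higher in both, at 0.39, 0.41 and 0.39 in WT and 0.26, 0.34 and 0.35 in Nrf2-KO mice. Psmb11 and Ccl25 were not called in either genotype, at 0.30 and 0.20 in WT and 0.07 and 0.13 in Nrf2-KO mice. Of 7 tested genes for specification and progenitors, 6 rose in each genotype (medians 0.53 and 0.67). The receptor Fgfr2, which receives growth signals from mesenchyme, changed by 0.52 in WT and 0.69 in Nrf2-KO mice. The transcription factor Pax1 and the cofactor Eya1, both needed to form the organ, changed by 0.53 and 0.64 in WT and 0.47 and 0.75 in Nrf2-KO mice, all called.

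Among 12 tested medullary genes, 4 were called higher in WT (median 0.28) and all 12 in Nrf2-KO mice (median 0.86). Many of the listed genes are expressed in more than 1 cell type, so these counts are not of epithelium alone. Dendritic cell markers were called higher in 1 of 6 cases in WT and 6 of 6 in Nrf2-KO mice, and their part was not tested. None of the 12 passed the interaction test, and their median log2 fold change between GC_KO and GC_WT was -0.20. Ccl19, a chemokine that draws selected thymocytes into the medulla, changed by 0.63 in WT (adjusted p = 0.00452) and by 1.27 in Nrf2-KO mice (adjusted p = 3.05e-06). The costimulatory ligand Cd86, which dendritic cells also express, changed by 0.58 and 0.82. Ltbr and Relb, a receptor and a transcription factor that medullary cells need to mature, changed by 0.36 and 0.26 in WT and by 0.44 and 0.61 in Nrf2-KO mice.

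Genes of further differentiated medullary cells, 5 tested, rose in 2 cases in WT (median 0.50) and in all 5 in Nrf2-KO mice (median 1.16). None of the 5 passed the interaction test. Trpm5 and Avil, which mark the tuft cells of the medulla, changed by 0.81 and 0.77 in WT (adjusted p = 0.00385 and 0.00494 by edgeR) and by 1.54 and 1.45 in Nrf2-KO mice (adjusted p = 3.06e-06 and 5.16e-06). Dclk1 and Pou2f3, also of tuft cells, were called in Nrf2-KO mice, at 0.98 and 1.16, and stood at 0.33 (adjusted p = 0.0810) and 0.50 (adjusted p = 0.313) in WT mice. Between FL_KO and FL_WT, Trpm5 (0.73, adjusted p = 0.0333 by edgeR), Avil (0.71, adjusted p = 0.0352) and Dclk1 (0.50, adjusted p = 0.0462) were called higher. They were among 5 of the 42 called higher there, against 1.31% of all genes. This count fell to 0 without FL_WT replicate 3, 7 or 8 or FL_KO replicate 9, to 1 without FL_WT replicate 10 or FL_KO replicate 2 or 12, and to 2 without FL_KO replicate 1.

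Of 6 tested cytokines and growth factors, 2 rose in WT and 4 in Nrf2-KO mice. Kitl, which sustains early precursors, changed by 0.56 and 0.35, and Wnt4 by 0.31 and 0.44. Il15 was called in Nrf2-KO mice at 0.93 (adjusted p = 0.000988) and stood at 0.34 in WT (adjusted p = 0.207), and Bmp4 was not called, at 0.56 and 0.54. A single protein-coding gene known to depend on AIRE, Csn2, had enough counts of 5 listed, and it was higher in both genotypes, by 0.80 (adjusted p = 0.0106) and 0.96 (adjusted p = 0.00116). Resp18, listed as dependent on FEZF2 and the 1 tested of 3, was at 0.09 in WT (adjusted p = 0.893 by edgeR) and 1.52 in Nrf2-KO mice (adjusted p = 0.00769). These values rest on few counts. Resp18 was at 0.38 to 1.32 CPM in GC_WT, 0.42 to 1.15 in FL_WT, 0 to 0.70 in GC_KO and 0.84 to 1.43 in FL_KO.

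**Figure D4:**
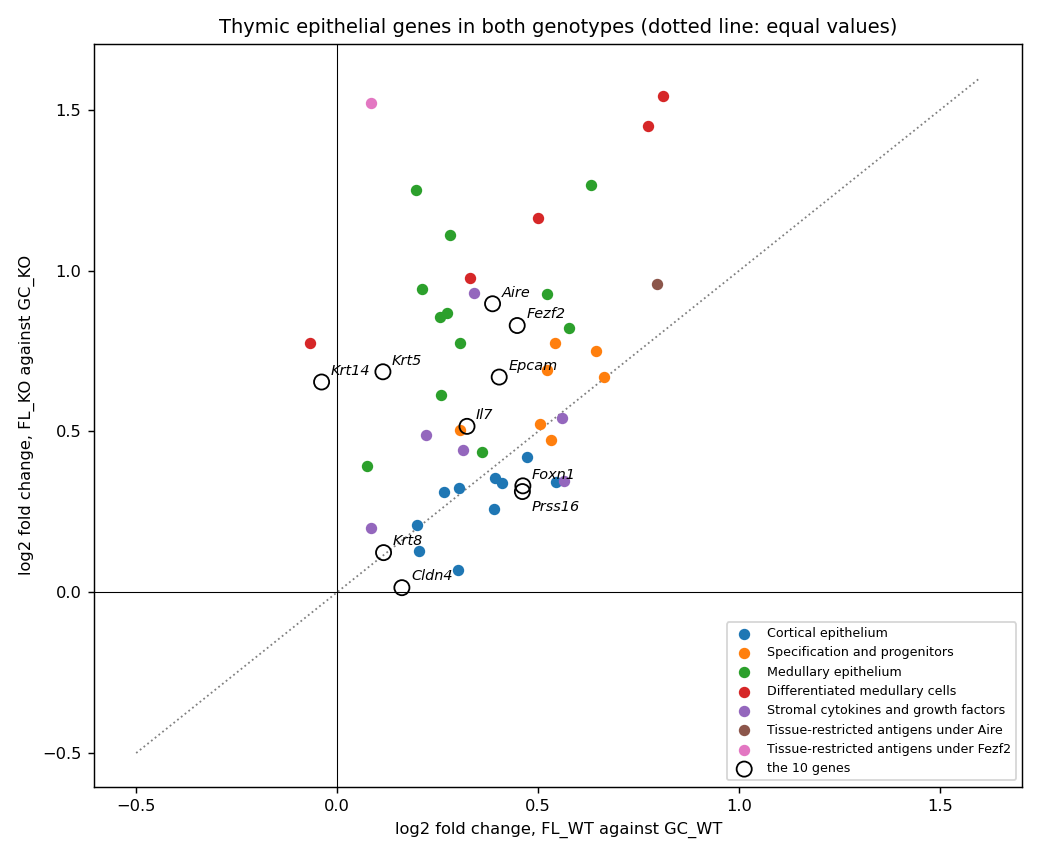
Log2 fold change with flight in WT mice (horizontal) against that in Nrf2-KO mice (vertical), 1 point per gene, coloured by the part of the list it comes from, with open circles for the 10 genes. The comparisons share no mice. The 12 tested genes of the medullary list lie above the dotted line of equal values, such as Ccl19 at 0.63 and 1.27. Cldn4, of the 10 genes, lies below it at 0.16 and 0.01. No gene passed the interaction test by edgeR.

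Thymocyte and stromal markers moved in the same comparisons. Of 10 thymocyte markers 7 fell in WT and 8 in Nrf2-KO mice, and their summed CPM was 10969 to 12326 in GC_WT, 7589 to 9846 in FL_WT, 9424 to 11161 in GC_KO and 6363 to 7633 in FL_KO. Proliferation genes fell in 4 and 5 of 6 cases. Of the 16307 genes tested, 1796 were called lower in WT and 3083 in Nrf2-KO mice. Dendritic cell markers were called higher in 1 of 6 cases in WT and 6 of 6 in Nrf2-KO mice, with sums of 96.8 to 129.8, 118.9 to 149.6, 87.8 to 106.7 and 128.7 to 147.8 CPM in the same order of groups. Macrophage markers rose in 3 and 6 of 6, fibroblast markers in 3 and 4 of 7 and endothelial markers in 2 and 4 of 5. B cell markers rose in 1 and 4 of 6, while 11.8% and 19.3% of all genes were called higher. Endothelial sums overlapped, at 155.0 to 165.8, 131.9 to 167.2, 147.5 to 174.4 and 143.9 to 188.0 CPM in the same order of groups. The fibroblast markers Col1a1 and Col3a1 had negative values in both genotypes and were not called. Markers of keratinizing epithelium rose in 0 and 3 of 3, with sums of 7.85 to 18.05 CPM outside FL_KO and 18.6 to 26.2 in FL_KO. No marker of these thymocyte, proliferation, immune, stromal and keratinizing lists was at 0 in any whole group. Markers of parathyroid and thyroid, which lie near the thymus, were called in 0 of 3 in both, with sums of 4.13 to 118 CPM. Adipocyte markers rose in 1 and 0 of 6, and markers of lymph node stroma in 1 and 2 of 2 tested. The part of these shifts in the values of the 10 genes was not tested.

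Whether the 10 genes varied together from mouse to mouse was examined on deviations of log2 CPM from group means in the 23 mice. Pearson's r was positive in 36 of 45 pairs, with a median of 0.352, and 10 pairs passed a permutation test with Benjamini-Hochberg adjustment over the 45, of which 6 also passed by Spearman's rho. All pairs share libraries, so depth and cell makeup are common to both genes. Aire and Fezf2 gave r = 0.788 and rho = 0.808 (permutation adjusted p = 0.00293 and 0.00225), with r = 0.772 without the 2 mice farthest from the median of Aire. Krt5 and Krt14 gave r = 0.732 and rho = 0.736 (permutation adjusted p = 0.00293 and 0.00900), with r = 0.717 without 2 mice. Krt5 and Epcam gave r = 0.689 and rho = 0.655 (permutation adjusted p = 0.00795 and 0.0172), with r = 0.717 without 2 mice. Foxn1 and Prss16 had the lowest r, -0.298.

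**Figure D5:**
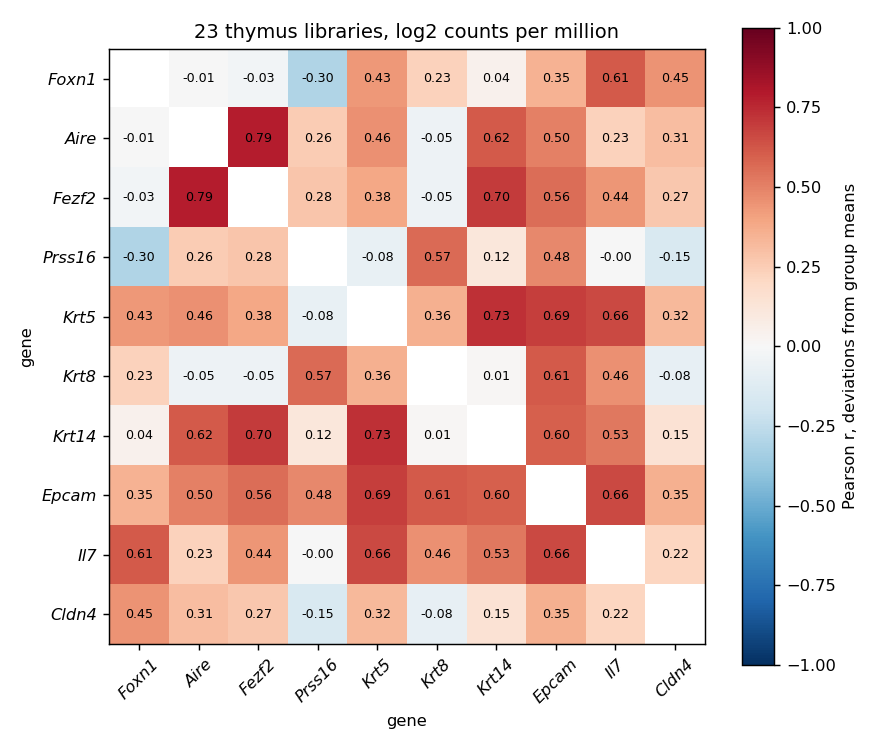
Pearson's r, by colour and number, for each pair of the 10 genes (both axes) over 23 thymus libraries, from log2 CPM with group means removed. The pair Aire and Fezf2 reaches 0.79, Krt5 and Krt14 0.73, and Foxn1 and Prss16 stand at -0.30.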

How the data were processed

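The authors extracted RNA from each tissue, depleted thymus RNA of ribosomal RNA, made strand-specific libraries and sequenced single reads. They mapped reads to mm10 with STAR 2.6.1 and estimated expression with RSEM 1.3.1. The deposited table holds, per gene and library, RSEM's expected counts, which the authors did not normalize, and its TPM, which sum to the same total in each library. FPKM columns and expected counts of other tissues, 360 of 576 value columns, were not used. Groups and mouse numbers came from the labels.

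Expected counts of 23 thymus libraries were rounded and fitted together in edgeR 4.0.16 (R 4.3.3) with filterByExpr (minimum count 10), TMM factors and the quasi-likelihood test. The 16307 p-values of a comparison were adjusted after Benjamini and Hochberg, with calls at 0.05. The fit was tested on simulated data. Alternatives used DESeq2 1.42.0 and limma 3.58.1. Gene models were read from GENCODE vM21, which held 98.4% of the versioned identifiers. Correlations used 100000 permutations. Replicates are separate mice per the labels.

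The 10 genes and all lists were chosen with earlier results of these data known. Besides the 10, at most 4 tested genes per list with the smallest adjusted p between FL_WT and GC_WT were named, with any called in the other direction. A few further genes, such as Ccl25, Col1a1 and Col3a1, were named outside this rule. A result that this rule would name is not reported here.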

Additional observations from a re-analysis of the deposited data

Results flagged for a closer look

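Within the groups of 5 or 6 mice, 3 of 40 combinations of gene and group held a mouse beyond Dixon's 95% limit, and chance alone gives about 1 in 20. FL_KO mouse 12 had 737 CPM of Prss16, with the other 4 mice between 839.9 and 873. FL_KO mouse 9 had 35.3 CPM of Krt14, with the others between 25.9 and 27.6. FL_WT mouse 6 had 51.1 CPM of Epcam, with the others between 36.7 and 41.2.

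Flight mouse 4, left out of all comparisons, had a TPM above the highest GC_KO mouse for 7 of the 10 genes. Its TPM was 12.83 for Aire (GC_KO 4.31 to 8.98), 5.9 for Fezf2 (2.01 to 4.87) and 497 for Prss16 (207 to 322). It was 165 for Krt8 (72.8 to 158), 15.7 for Krt14 (7.35 to 13.8), 26.1 for Epcam (11.04 to 18.7) and 9.16 for Il7 (4.44 to 8.66). The median gene also stood higher in flight on this scale. Small RNA genes took 55.2% of TPM in flight mouse 4, against 57.1% to 68.2% in GC_KO. The share of all genes in which this mouse exceeded every GC_KO mouse was not counted.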

How the results depend on the processing

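Among 500 alternative values of single genes of the 10, 477 stayed on their side of the threshold, 5 lost a call and 18 gained one, and no called value changed sign. The sign of a value that was not called changed in 15 cases, for Krt14, Cldn4, Foxn1, Fezf2 or Krt8. Between FL_WT and GC_WT, edgeR called 3 of the 10 higher. There limma called 6 on log2(TPM + 1), 6 with a pseudocount of 0.1 and 5 without a filter on low values. It called 5 after rescaling TPM without small RNA, ribosomal protein and mitochondrial genes. Over all genes, limma called 5715 of 15754 higher on log2(TPM + 1) and 5603 of 15754 with a pseudocount of 0.1. It called 4518 of 18290 on rescaled TPM and 5046 of 34521 without a filter, against 1925 of 16307 by edgeR. On both log2 TPM scales 33 of the wider list were called in place of 21. Leaving out single mice gave 2 to 5 of the 10, with 5 without FL_WT replicate 7. Between FL_KO and GC_KO it gave 7 throughout, also without GC_KO replicates 1 and 4 together, a choice made after seeing the data.

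Between FL_KO and FL_WT, where Aire alone was called, DESeq2 and edgeR without a count filter called 2, while limma called 0 on log2(TPM + 1), with the pseudocount of 0.1 and without a filter. Leaving out single mice gave 1 to 2, with 2 without FL_WT replicate 5 or 6. For the wider list, 5 became 0 to 5 without single mice, 3 with only the compared groups in the fit, 1 on rescaled TPM, and 0 on the other limma scales and with flight mouse 4 included, which also lowered the calls over all genes from 213 higher and 218 lower to 107 and 90. DESeq2 called 1 of the wider list lower between GC_KO and GC_WT. Of the 45 pairs of genes, 24 passed on log2(TPM + 1) and 5 without the 2 farthest mice, in place of 10. With flight mouse 4 included, FL_KO means in mandibular bone became 0.43 TPM for Foxn1, 0.19 for Fezf2, 0.20 for Prss16, 1039 for Krt5 and 1766 for Krt14, and that of Cldn4 in cerebrum 0.0167.

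A mouse number is used once in flight and once on the ground, for different animals, and the correlation of their deviations was -0.083 to 0.145, with 1 of 6 WT and 1 of 5 Nrf2-KO flight mice most like its own number. With the mouse number as a replicate block, 4 of the 10 genes were called in WT (Foxn1 and Il7 gained, Aire lost at an adjusted p of 0.0536 by edgeR) and 7 in Nrf2-KO mice, with 21 and 33 of the wider list. The block changed no other call among the 10. The correlation above is over all genes tested. Foxn1 was ordered by mouse number in every group, as given above, and Il7 in both Nrf2-KO groups but in neither WT group. Fezf2 had the fewest counts, 52 to 159 per library, and the causes of these changes were not tested.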

Other observations

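The genes on thymocytes that receive epithelial signals, or signal back, were counted from a list of 12. In WT mice 5 were called higher and 3 lower in flight, and in Nrf2-KO mice 8 higher and 2 lower. Of the 16307 genes tested, 1925 were called higher and 1796 lower in WT. In Nrf2-KO mice 19.3% were called higher and 18.9% lower, so 2 of 12 lower is near the share of all genes. Ccr9, the receptor for the cortical chemokine Ccl25, fell by 0.41 on the log2 scale in WT (adjusted p = 1.20e-05 by edgeR) and by 0.50 in Nrf2-KO mice (adjusted p = 8.28e-07). Cxcr4, the receptor for Cxcl12, fell by 0.38 and 0.51, while its ligand was higher in both. The receptors Notch3 and Notch1, through which epithelial Dll4 commits precursors to the T lineage, changed by 0.40 and 0.25 in WT and by 0.50 and 0.22 in Nrf2-KO mice, all called.

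The 5 genes whose deviations from group means followed the mean of the 10 most closely over 23 mice were C3 (r = 0.897), Lgals3 (0.888), Fcgbp (0.874), Ehf (0.867) and Col6a1 (0.864), given as a description. C3, a complement protein, was higher in flight by 0.45 in WT (adjusted p = 0.00764 by edgeR) and by 0.90 in Nrf2-KO mice (adjusted p = 6.27e-06). Ehf, an epithelial transcription factor, was higher by 0.62 and 1.17. Lgals3, Fcgbp and Col6a1 were called in Nrf2-KO mice, at 0.51, 1.03 and 0.78, and not in WT, at 0.19, 0.30 and 0.11. Taken 1 by 1, Krt8 was closest to Krt18, its usual keratin partner (r = 0.969), Foxn1 to Selplg (0.913), Aire to Ubd (0.912), Krt5 to the epithelial cadherin Cdh1 (0.907) and Fezf2 to Gm13304 (0.894). Prss16 was closest to Fabp5 (0.880), Epcam to Lgals3 (0.863), Krt14 to Rgs5 (0.841), Il7 to Igf1 (0.833) and Cldn4 to Abcg1 (0.806).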
